A study of Danio rerio with 16 samples.

Results

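The genes described here are 10 lymphocyte genes, chosen by name out of the 31351 genes in a table of read counts from zebrafish heart ventricles. They are lck, zap70, cd4-1, cd8a, foxp3a, il7r and tcf7, which are known from T cells and their relatives, and cd79a, cd79b and pax5, which are known from B cells. The choice was made with earlier results of these data known. Counts of these genes set beside shares of all genes are therefore descriptions only. All 10 symbols had a row in the table. Of these, 9 passed the filter on low counts, at least 10 counts in at least 2 samples. The exception was cd8a, which was near 0 and had fewer than 10 counts in 15 of the 16 samples.

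Lymphocytes recognise antigen through receptors that have no enzyme activity of their own. In T cells, the kinase Lck, which is bound by the coreceptors Cd4 and Cd8, phosphorylates the receptor complex. The kinase Zap70 then binds to that complex and carries the signal on. In B cells, Cd79a and Cd79b are the signalling chains of the membrane immunoglobulin, while Pax5 is the transcription factor that keeps a cell in the B lineage. In the zebrafish heart, regulatory T cells marked by foxp3a are known to enter the injured ventricle and to act on regeneration.

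The samples were ventricles of nr4a1 mutant and wild-type zebrafish. They were taken from uninjured hearts (0 dpci) and at 2, 7 and 21 days post cardiac cryoinjury (dpci), when part of the ventricle has been killed by freezing, with 2 samples in each of the 8 conditions. The mutants carried the nc40 allele, a CRISPR/Cas9 insertion in the second exon of nr4a1 that brings a premature stop codon. The wild types carried no engineered allele as far as the labels say, and nothing says whether they were siblings of the mutants. Nr4a1 is a nuclear receptor known from mammals as an early response gene of stimulated lymphocytes and macrophages. The labels tell neither whether a sample was 1 heart or a pool nor whether both samples of 1 condition were taken from separate fish. The p-values therefore rest only on the spread between these 16 samples. The fit shares that spread over conditions and, with 62.2 prior degrees of freedom, mostly over genes.

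Depth was between 14333475 and 27668498 counts per sample, with a median of 19144221 in the mutants and 20750355.5 in the wild types. The transcript of nr4a1 was present in both genotypes, between 1128 and 3389 counts in mutants and between 470 and 5222 in wild types. An insertion is not visible in a count per gene, so these counts check no label. Cardiomyocyte markers summed to between 46300 and 103000 CPM (counts per 1e6 counts of the library) and were thus abundant in all samples. Their sum was lower in mutants without overlap at every stage, at 7 dpci 53900 to 54200 CPM beside 58900 to 60600 in wild types and at 21 dpci 87000 to 87700 beside 102000 to 103000. The 10 lymphocyte genes together had only 72 to 423 counts in a sample, with a median of 150.5. At this depth 1 count was worth 0.0413 to 0.0633 CPM. Levels are in CPM of the library size scaled by TMM, and they are compared between samples of 1 gene, not between genes. In whole ventricles, fewer cells of a type and less RNA per cell cannot be told apart.

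Most members changed between stages in 1 or both genotypes. The exception among those tested was il7r, which was called in no stage comparison. Pax5 and tcf7 were called in none within wild types, and zap70 in none within mutants. The T-cell kinase genes lck and zap70 had their highest mean levels at 7 dpci, foxp3a was nearly absent before 7 dpci, cd4-1 was already high at 2 dpci, and the B-cell genes had a peak at 7 dpci in mutants. Of the 9 members tested, 6 were higher in mutants at 1 or more stages, where 25% of the 18949 genes tested were. No member was called lower in mutants at any stage, against 23.5% of genes. A gene was called when its Benjamini-Hochberg adjusted p, from edgeR's quasi-likelihood test over all genes tested, was under 0.05 and its absolute log2 fold change was over 0.5. The count of 6 depends on this test. With DESeq2 on the same counts, the single-stage genotype calls of cd4-1, pax5 and foxp3a were lost. In a test against a fold change threshold (glmTreat), only cd79a and cd79b of the 6 were still called, both at 7 dpci.

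Between 2 and 7 dpci, 7 of the 9 members were called higher in mutants and 3 in wild types, where 11.4% and 12.4% of all genes rose. The 7 include tcf7, which passed the filter on low counts only through the mutant samples of 7 dpci, and with 1 sample left out the count was 5 to 6. Between 7 and 21 dpci, 4 members fell in mutants and 5 in wild types, against 17% and 20.5% of genes, while 29.8% and 37% of genes changed in either direction. No member fell in the first of these intervals, where 10.5% of all genes fell in mutants and 11% in wild types. None rose in the second, where 12.8% and 16.6% of genes rose. With only 9 members, 0 is not far from these shares.

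**Figure D1:**
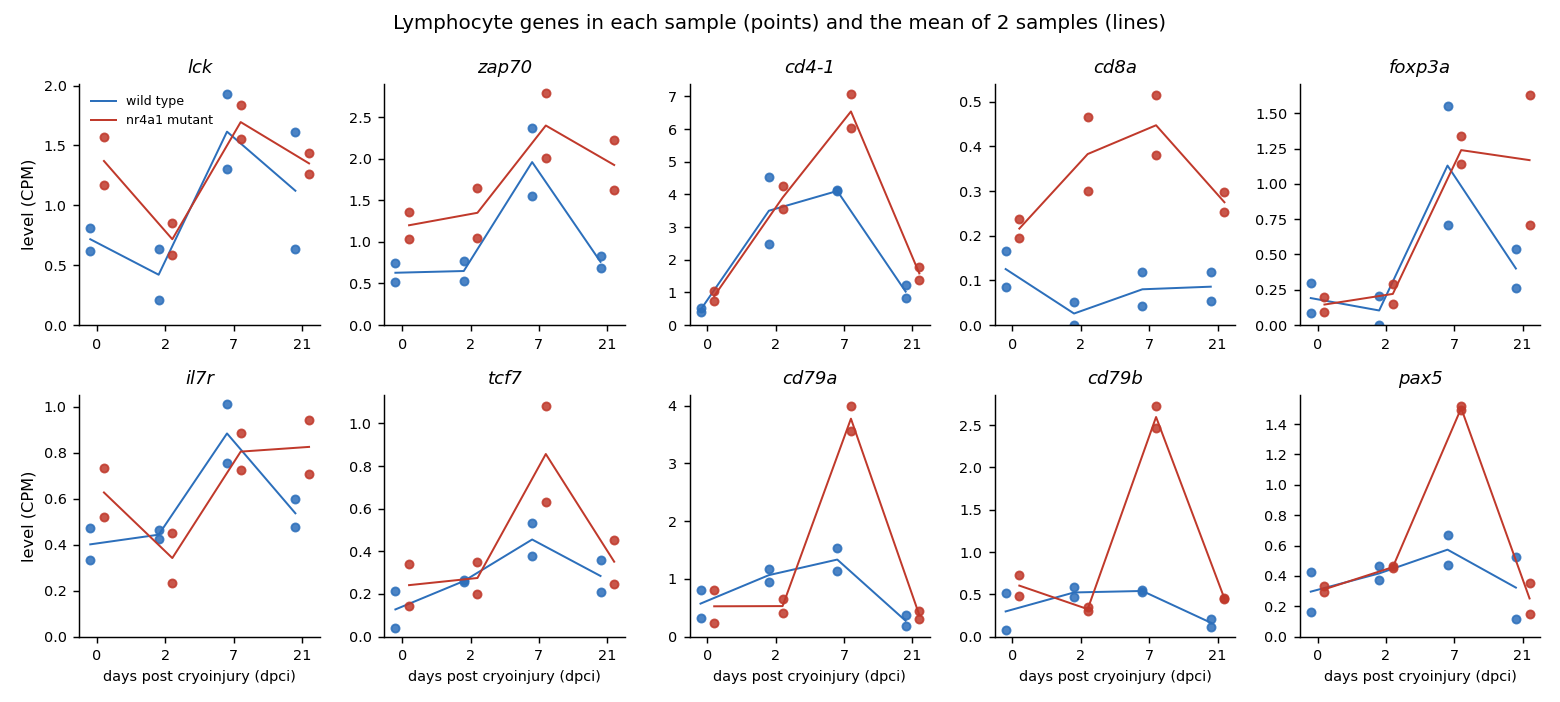
Level in CPM (y axis, from 0) of each of the 10 genes in the 16 samples, by stage in dpci (x axis, evenly spaced), with nr4a1 mutants in red and wild types in blue. Points are samples and lines join the means of 2 samples. The mutant samples of 7 dpci stand apart for cd79a, at 3.56 and 3.99 CPM. For cd8a all 8 mutant samples lie above all 8 wild-type samples, though the nearest pair had 4 counts each.

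The clearest genotype difference was in the B-cell genes at 7 dpci. Cd79a is 1 chain of the signalling pair of the B-cell receptor. At 7 dpci its transcript had 69 and 63 counts in the mutant samples and 26 and 27 in the wild types, or 3.77 ± 0.306 against 1.34 ± 0.287 CPM (mean ± SD, n = 2 each). The mutant samples were the highest of all 16, and no other sample reached 2 CPM. Mutants were higher by 1.51 ± 0.36 (log2 fold change ± standard error, adjusted p = 0.000434 in edgeR).

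The other chain of the pair, cd79b, had the larger difference. It had 48 and 43 counts in mutants at 7 dpci, and 9 and 13 in wild types. Counting error alone puts the mutant counts between 35.4 and 63.6 and between 31.1 and 57.9 (exact Poisson 95% intervals), and the wild-type counts between 4.12 and 17.1 and between 6.92 and 22.2. The means were 2.60 ± 0.176 and 0.540 ± 0.00928 CPM (SD, n = 2), and the log2 fold change was 2.25 ± 0.48, with an edgeR adjusted p of 6.13e-05. These 2 mutant samples, too, were the highest of the 16.

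Pax5 directs and maintains B-cell identity. It had 29 and 24 counts in mutants at 7 dpci and 8 and 16 in wild types, or 1.51 ± 0.0175 against 0.573 ± 0.140 CPM (SD, n = 2). The groups did not overlap. The log2 fold change of 1.36 ± 0.51 passed the test with an edgeR adjusted p of 0.0338. This call was lost in each of the 4 fits that left out 1 of the samples, with adjusted p between 0.0728 and 0.15, and log2 fold changes between 1.17 and 1.67. Those of cd79a and cd79b were kept in all 4.

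With cd4-1, the B-cell genes made 4 of 9 members called higher in mutants at 7 dpci, where 7.03% of all genes tested were called higher. No member was lower, against 5.94% of genes. DESeq2, run on the same counts, called 2 members higher, cd79a and cd79b. The median log2 fold change of the 9 members was 0.68, and that of all genes tested was 0.000274. The 9 include tcf7, at 0.96, which passed the filter only through the mutant samples of 7 dpci. This median is therefore no independent sign, nor was a raised median particular to 7 dpci. The members' medians at 0, 2 and 21 dpci were 0.897, 0.133 and 0.606. Those of all genes tested were 0.0148, 0.0213 and 0.0175.

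At the other stages the 3 B-cell genes did not differ between genotypes by the test. At 2 dpci the order was the other way for both receptor chains. Cd79a had 7 and 13 counts in mutants and 18 and 23 in wild types, a log2 fold change of -0.98 ± 0.50 with an edgeR adjusted p of 0.109. Cd79b had 6 and 6 counts against 11 and 9, and its log2 fold change was -0.68 ± 0.65 (edgeR adjusted p = 0.444). In both genes the mutant samples were below the wild types without overlap, though each by a few counts. Pax5 had 8 and 9 counts in mutants and 7 and 9 in wild types at this stage.

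Before injury the wild-type samples differed among themselves. Cd79b had 2 counts in wild-type sample 1 and 12 in sample 2, beside 10 and 15 in mutants. Cd79a had 8 and 19 counts in wild types and 17 and 5 in mutants, and pax5 had 4 and 10 beside 7 and 6. The ranges of the genotypes met or overlapped for all 3 genes. At 21 dpci the B-cell genes were back near their uninjured levels. Cd79a had 9 and 6 counts in mutants and 7 and 3 in wild types, and pax5 had 3 and 7 beside 10 and 2. Cd79b had 9 and 9 counts in mutants and 4 and 2 in wild types, with no overlap but few counts (log2 fold change 1.39 ± 0.81, edgeR adjusted p = 0.154).

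In mutants, then, the rise of the B-cell genes took place between 2 and 7 dpci. Cd79a rose by a log2 fold change of 2.80 ± 0.46 (edgeR adjusted p = 2.83e-08), cd79b by 2.98 ± 0.57 (adjusted p = 1.06e-06) and pax5 by 1.71 ± 0.55 (adjusted p = 0.00622), though the pax5 call was lost without mutant sample 2 of 2 dpci (adjusted p = 0.0546). In wild types the same interval gave 0.30 ± 0.41, 0.05 ± 0.58 and 0.48 ± 0.61, and none was called. The difference between genotypes in this change was itself tested, a comparison added after the stage values had been seen. It was 2.50 ± 0.61 for cd79a (edgeR adjusted p = 0.000822) and 2.93 ± 0.81 for cd79b (adjusted p = 0.00325). For pax5 it was 1.22 ± 0.82, with an adjusted p of 0.305. The positive calls made up 2 of 9 members, where 11.2% of all genes tested had a positive call.

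From 7 to 21 dpci the 3 B-cell genes fell in mutants, and both receptor chains fell in wild types. In mutants the log2 fold changes were -3.31 ± 0.50 for cd79a (edgeR adjusted p = 6.35e-10), -2.51 ± 0.51 for cd79b (adjusted p = 5.77e-06) and -2.56 ± 0.64 for pax5 (adjusted p = 0.000135). In wild types they were -2.21 ± 0.60 for cd79a (adjusted p = 0.000313), -1.65 ± 0.79 for cd79b (adjusted p = 0.0471) and -0.80 ± 0.66 for pax5 (adjusted p = 0.295). The wild-type call of cd79b rested on 22 counts at 7 dpci and 6 at 21 dpci, and was lost whichever of the 4 samples was left out.

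The number of leukocytes in the heart also changes with injury, so the members were set beside genes that most leukocytes express. Summed over 10 pan-leukocyte genes, such as ptprc, coro1a and lcp1, the level at 7 dpci was 739 to 744 CPM in mutants and 621 to 623 CPM in wild types. Uninjured mutants had 214 to 218 CPM and uninjured wild types 180 to 181. The sums were highest 2 days after injury, with 1060 to 1070 CPM in mutants beside 1000 to 1010 in wild types, and had come down to 271 to 281 beside 179 to 184 CPM by 21 dpci. The mutant samples were above the wild types at each stage. Over all genes tested, 11.9%, 8.35%, 7.03% and 9.49% were called higher in mutants by stage and 11.8%, 8.5%, 5.94% and 6.83% lower, the shares beside which the counts of this and the other lists stand. Of these 10 genes, 1, 0, 0 and 7 were called higher in mutants at 0, 2, 7 and 21 dpci, and none lower. The 2 samples of a condition lay close together in these sums. Neutrophil markers also differed, with 8, 0, 7 and 5 of 11 higher in mutants and 1, 1, 0 and 1 lower, and a sum at 7 dpci of 168 to 169 CPM in mutants and 114 to 115 CPM in wild types. Thrombocyte markers summed to 238 to 246 CPM in mutants and 394 to 406 in wild types at 2 dpci, and endothelial markers to 896 to 906 and 1090 CPM at 7 dpci. Of 7 erythrocyte markers, 6 were called lower in mutants at 0 dpci and none was called later. Their sum at 0 dpci was 1070 to 1080 CPM in mutants and 2080 to 2110 in wild types. At 21 dpci the order was the other way, with 1460 to 1510 beside 1270 to 1280 CPM. The part of these other cell types in the values of the lymphocyte genes was not tested beyond the scaling described next.

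Per 1000 CPM of pan-leukocyte genes, cd79a, cd79b and pax5 together made 10.2 to 11 CPM in mutants at 7 dpci and 3.79 to 4.09 CPM in wild types. The same ratio was 1.15 to 1.32 against 1.89 to 2.09 at 2 dpci. The genotypes overlapped before injury (5.81 to 7.55 in mutants, 3.22 to 9.71 in wild types) and on day 21 (3.84 to 3.96 and 2.27 to 6.17). In a fit scaled to pan-leukocyte counts, which was added after the data had been seen, the difference at 7 dpci was 1.26 for cd79a (log2, edgeR adjusted p = 0.00234) and 1.99 for cd79b (adjusted p = 0.000164). For pax5 it was 1.1, with an adjusted p of 0.062. The excess of the receptor chains in mutants was thus larger than that of the pan-leukocyte genes.

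**Figure D2:**
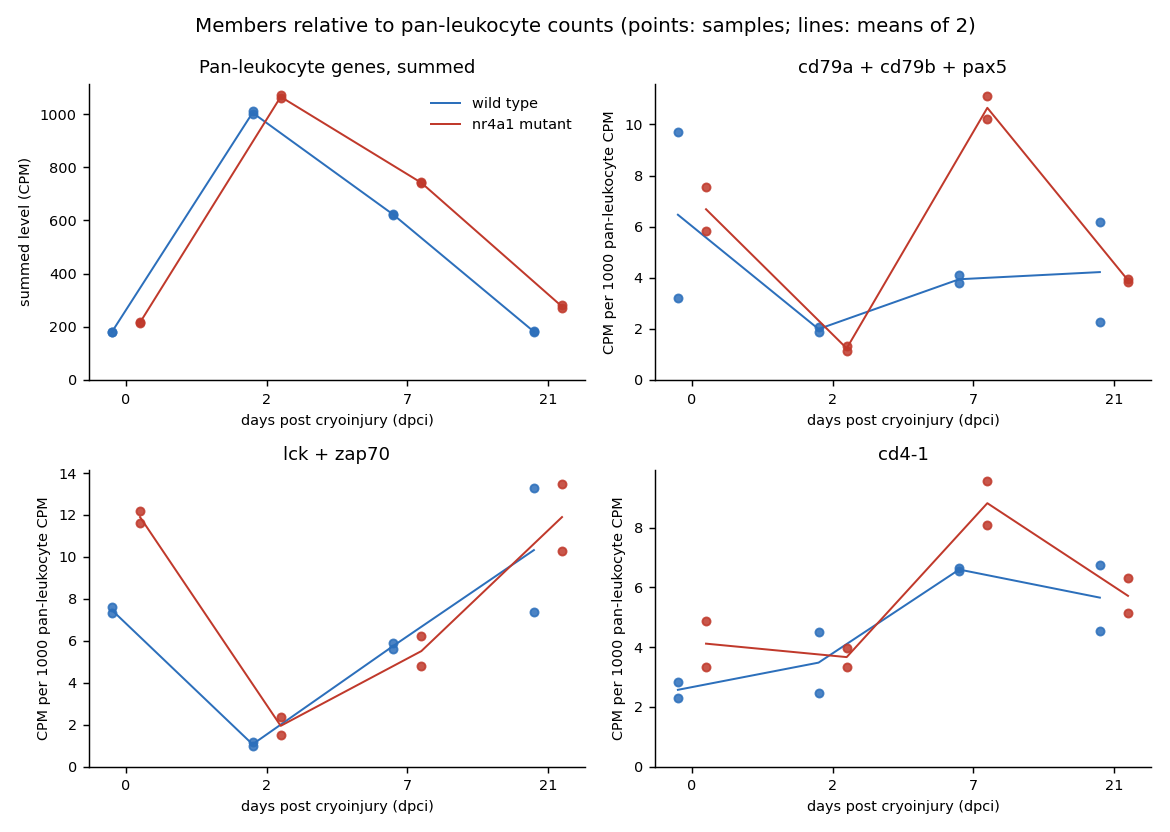
Summed level of 10 pan-leukocyte genes in CPM (upper left) and the level of 3 sets of members per 1000 CPM of those genes (y axes, from 0), by stage in dpci (x axis). Points are samples, lines join the means of 2, mutants are red and wild types blue. The B-cell ratio at 7 dpci was 10.2 to 11 in mutants and 3.79 to 4.09 in wild types. The lck and zap70 ratio was lowest at 2 dpci in both genotypes, when the pan-leukocyte sum was highest.

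A wider list of B-cell genes moved less evenly. Of 24 tested, 8 were higher in mutants at 7 dpci and 0 were lower. In uninjured hearts 6 were higher and 1 lower, at 2 dpci 3 and 4, and by 21 dpci 10 and 2. Its 4 most abundant genes, mef2ca, spi1b, cxcr4b and lyn, are also expressed in muscle or myeloid cells. At 7 dpci, spi1b, which encodes a myeloid and B-cell transcription factor, was higher in mutants by 0.57 (log2, edgeR adjusted p = 5.02e-10). The tetraspanin cd37 and the heavy-chain gene ighd are closer to B cells, and were picked from the list after their values had been seen. At 2 dpci cd37 was at 0.849 ± 0.282 CPM in mutants and 2.42 ± 0.157 in wild types (log2 fold change -1.53, adjusted p = 0.000223), and at 7 dpci at 5.85 ± 0.117 and 2.85 ± 0.825 CPM (1.06, adjusted p = 0.000596). The change of its genotype difference from 2 to 7 dpci was 2.59 (adjusted p = 1.42e-06). Cd37 was, however, also higher in uninjured mutants, by 0.90 (adjusted p = 0.0443). The change of its genotype difference from 0 to 7 dpci was 0.17 (adjusted p = 0.848). For ighd the difference was -1.43 at 2 dpci (adjusted p = 0.00227) and 0.52 at 7 dpci (adjusted p = 0.181), and its change from 2 to 7 dpci was 1.95 (adjusted p = 0.0013). Other genes of the list, also named after their values had been seen, did not follow this order. The receptor gene cd22 was higher in mutants at 2 and 7 dpci (0.77 and 0.66, adjusted p = 0.00011 and 0.00255) and lower at 21 dpci (-0.82, adjusted p = 0.00228). The transcription factor gene ebf1b was lower at 2 and 21 dpci (-1.59 and -2.13, adjusted p = 0.00288 and 1.17e-05).

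The kinase genes lck and zap70 followed another course. Lck starts the signal of the T-cell receptor and is a standard marker of zebrafish T cells. It had 33 and 24 counts in uninjured mutants and 15 and 19 in wild types, or 1.37 ± 0.281 against 0.716 ± 0.136 CPM (SD, n = 2), without overlap. The log2 fold change was 0.93 ± 0.41, with an edgeR adjusted p of 0.0572. At 2 dpci it had 10 and 17 counts in mutants and 12 and 4 in wild types, the lowest mean level in each genotype. At 7 dpci it had 30 and 29 counts in mutants and 22 and 46 in wild types, and at 21 dpci 29 and 25 against 12 and 27, so that the genotypes overlapped at all 3 stages after injury. Averaged over the 4 stages the difference was 0.51 ± 0.22 (adjusted p = 0.0483), just past both thresholds. It missed a threshold in 9 of the 16 fits with 1 sample left out, over which it lay between 0.36 and 0.76. Relative to pan-leukocyte counts it was 0.21 (adjusted p = 0.389).

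Zap70 binds the phosphorylated receptor of T cells and natural killer cells. Its mutant samples were above the wild types at 3 of the 4 stages, as were those of cd4-1, while il7r and cd79b had this order at 2. With 2 samples on each side such an order arises easily, and the share of all genes with it at single stages is not given here. At 0 dpci it had 22 and 28 counts in mutants and 18 and 12 in wild types, a log2 fold change of 0.93 ± 0.41 with an edgeR adjusted p of 0.0551. At 2 dpci it had 18 and 33 counts against 10 and 15 (1.06 ± 0.43, adjusted p = 0.0385), and at 21 dpci 45 and 32 against 13 and 14 (1.34 ± 0.40, adjusted p = 0.00405). The samples did not overlap at these stages. Only at 7 dpci did the samples overlap, with 39 and 44 counts in mutants and 40 and 37 in wild types (0.31 ± 0.32, adjusted p = 0.533).

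Zap70 was thus the 1 member called at 2 dpci, where 8.35% of all genes were called higher and 8.5% lower, and 1 of the 2 called at 21 dpci, where 9.49% were higher and 6.83% lower. Its call at 2 dpci was lost in 3 of the 4 fits with a sample left out, the range being 0.69 to 1.37. At 21 dpci it was lost without mutant sample 1 or without wild-type sample 1, over a range of 1.09 to 1.55. Averaged over the stages, the log2 fold change was 0.91 ± 0.20 (edgeR adjusted p = 5.23e-05), and it was kept in all 16 such fits, between 0.81 and 0.98. Relative to pan-leukocyte counts, the averaged difference was 0.61 (adjusted p = 0.00409), while those at 2 and 21 dpci were 0.98 and 0.75, with adjusted p of 0.0611 and 0.0915. The mutants' excess in pan-leukocyte genes was largest at 21 dpci, and its part in the zap70 value there was not tested further.

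From 2 to 7 dpci lck rose in both genotypes, and zap70 passed the test in wild types. In wild types lck rose by 1.97 ± 0.50 (edgeR adjusted p = 0.000278) and zap70 by 1.55 ± 0.41 (adjusted p = 0.000686). In mutants lck rose by 1.21 ± 0.44 (adjusted p = 0.0165), and zap70 gave 0.80 ± 0.34 (adjusted p = 0.0509). That lck call was lost without mutant sample 1 of 2 dpci or sample 2 of 7 dpci, with adjusted p up to 0.156. From 7 to 21 dpci zap70 fell in wild types by 1.34 ± 0.40 (adjusted p = 0.00223), a call lost without wild-type sample 1 of 7 dpci, whereas in mutants its log2 fold change was -0.30 ± 0.32 (adjusted p = 0.456). The difference between these changes, 1.04 ± 0.51, did not pass the test (adjusted p = 0.13), so the later decline was not shown to differ. Set beside the pan-leukocyte genes, the summed level of lck and zap70 was lowest at 2 dpci, at 1.53 to 2.36 per 1000 CPM in mutants and 0.969 to 1.16 in wild types. It was 11.6 to 12.2 and 7.34 to 7.59 before injury.

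**Figure D3:**
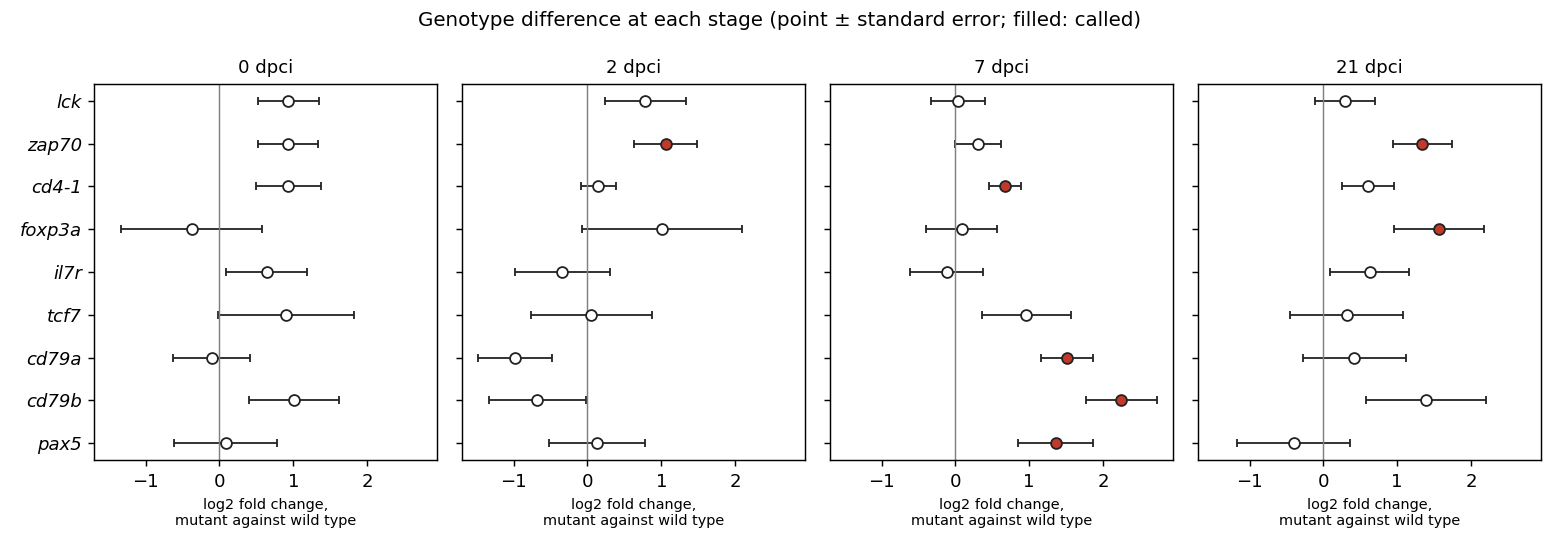
Log2 fold change of mutants against wild types (x axis) with its standard error (bars) for the 9 members tested (y axis), 1 panel per stage. Filled points were called by edgeR. Filled points lie at zap70 at 2 dpci (1.06), at cd4-1, cd79a, cd79b and pax5 at 7 dpci (0.68 to 2.25) and at zap70 and foxp3a at 21 dpci (1.34 and 1.56).

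Foxp3a encodes the transcription factor of regulatory T cells, which restrain other immune cells. It was nearly absent early. At 0 dpci it had 2 and 4 counts in mutants and 2 and 7 in wild types, and at 2 dpci 5 and 3 in mutants beside 0 and 4. At 7 dpci it had 26 and 18 counts in mutants and 12 and 37 in wild types, and the groups overlapped (log2 fold change 0.09 ± 0.48, edgeR adjusted p = 0.922). The genotypes parted at 21 dpci, where the mutants had 33 and 14 counts and the wild types 5 and 9, or 1.17 ± 0.655 against 0.400 ± 0.193 CPM (SD, n = 2). Both mutant samples were above both wild types.

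The log2 fold change of foxp3a at 21 dpci was 1.56 ± 0.61, with an edgeR adjusted p of 0.0298. Without mutant sample 1 it was 0.84 and was not called, and the call was lost without wild-type sample 1 as well. With zap70 it made 2 of 9 members higher at 21 dpci, whereas DESeq2 called 1. Relative to pan-leukocyte counts foxp3a gave 0.98 (adjusted p = 0.134). At 21 against 0 dpci, where 20% of all genes changed in mutants, the members called were foxp3a and cd4-1. In mutants foxp3a was still above its uninjured level at 21 dpci, by 2.97 ± 0.80 (adjusted p = 0.000204), and the change from 7 dpci was -0.09 ± 0.48 (adjusted p = 0.903). From 2 to 7 dpci foxp3a rose in mutants by 2.49 (edgeR adjusted p = 0.00104), against samples with 5 and 3 counts. In wild types it rose by 3.42 ± 0.94 from 2 to 7 dpci (adjusted p = 7.86e-05), against samples with 0 and 4 counts, and fell by 1.56 ± 0.61 from 7 to 21 dpci (adjusted p = 0.0178). That fall was lost without wild-type sample 2 of 7 dpci or sample 1 of 21 dpci. The genotype difference at 21 dpci minus that at 7 dpci was 1.47 ± 0.78 and did not pass the test (adjusted p = 0.156).

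Cd4-1 encodes a Cd4 coreceptor, which in helper T cells binds MHC class II, and in zebrafish it is also expressed in macrophages and dendritic cells. It was the member with the most counts, 837 in all. At 0 dpci it had 22 and 15 counts in mutants and 10 and 12 in wild types, a log2 fold change of 0.93 ± 0.44 (edgeR adjusted p = 0.0689), without overlap. At 2 dpci it had 73 and 71 counts against 47 and 88, and the samples overlapped (0.15 ± 0.24, adjusted p = 0.684). At 7 dpci it had 137 and 95 counts in mutants and 69 and 98 in wild types, or 6.54 ± 0.740 against 4.1 ± 0.0217 CPM (SD, n = 2), where the mutant samples were the highest of all 16.

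The difference of cd4-1 at 7 dpci was 0.68 ± 0.22 (edgeR adjusted p = 0.0132), and it was lost without mutant sample 1 or without wild-type sample 2, over a range of 0.57 to 0.79. At 21 dpci there were 28 and 35 counts against 23 and 14, without overlap in CPM (0.61 ± 0.35, adjusted p = 0.18). Averaged over the stages it was 0.59 ± 0.16 (adjusted p = 0.00145). That call was lost in 1 of 16 fits, without wild-type sample 1 of 2 dpci, where the value was 0.50. Relative to pan-leukocyte counts the averaged value was 0.29 (adjusted p = 0.0941).

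In contrast to lck, which had its lowest mean at 2 dpci, cd4-1 was high at that stage, when the macrophage markers were highest. Its own highest mean was at 7 dpci. It rose from 0 to 2 dpci in wild types by 2.91 ± 0.38 (edgeR adjusted p = 3.84e-12) and in mutants by 2.12 ± 0.32 (adjusted p = 2.82e-09). From 7 to 21 dpci it fell by 1.98 ± 0.32 and by 2.05 ± 0.27 (adjusted p = 1.77e-08 and 8.17e-11). At 21 dpci it was still above its uninjured level in wild types, by 1.15 ± 0.44 (adjusted p = 0.023), and in mutants, by 0.82 ± 0.35 (adjusted p = 0.0494). The wild-type call was lost without wild-type sample 1 of 0 dpci or sample 1 of 21 dpci, and the mutant call whichever sample was left out. Cd4-1 was the 1 member called higher at 2 than at 0 dpci in each genotype, where 22.9% and 24.4% of all genes were higher and 41.9% and 45.2% changed in either direction. Summed over 12 macrophage markers, such as mpeg1.1 and marco, the level in wild types was 150 CPM in uninjured hearts and then, in order of stage, 851 to 856, 718 to 734 and 171 to 174 CPM. In mutants it was 171 to 175, 1100 to 1110, 844 to 860 and 268 to 276 CPM. The mutant samples were thus above the wild types at every stage in these markers as well, and 3, 4, 3 and 9 of the 12 were called higher by stage and 1, 1, 0 and 0 lower. The lower one was csf1rb, at -0.57 and -1.06 (log2, adjusted p = 0.0299 and 6.53e-05). Markers of dendritic cells, 7 tested, had 3, 2, 1 and 3 higher and 2, 0, 0 and 0 lower.

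Relative to pan-leukocyte counts, the cd4-1 difference was 0.42 at 7 dpci (log2, edgeR adjusted p = 0.102). Among 15714 genes with a mean of at least 1 CPM, the patterns most like that of cd4-1 over the 16 samples were those of unc93b1, b3gnt9 and si:dkey-15j16.3 (Pearson's r of log2 CPM 0.984, 0.978 and 0.977). Unc93b1 carries Toll-like receptors to endosomes. For lck they were sh3bp5a, ajuba and megf6a, at 0.877, 0.836 and 0.834. Between cd4-1 and lck r was 0.047, and between lck and zap70 it was 0.63. All these values describe 16 libraries that share stages and genotypes.

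**Figure D4:**
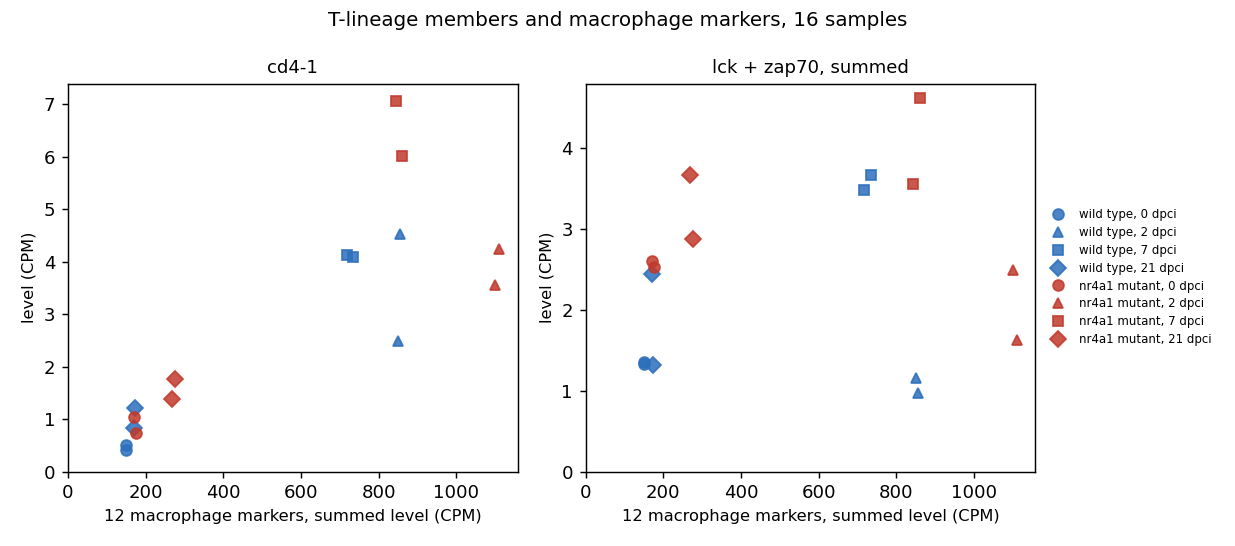
Level in CPM of cd4-1 (left) and of lck and zap70 summed (right) on the y axes against the summed level of 12 macrophage markers in CPM on the x axis, for the 16 samples. Colours give the genotype and symbols the stage. The 2 dpci samples had the highest marker sums of their genotype. Cd4-1 was at 3.55 to 4.25 CPM there in mutants and 2.48 to 4.52 in wild types, against 0.731 to 1.04 and 0.413 to 0.513 before injury. Lck and zap70 together were at 1.63 to 2.50 and 0.977 to 1.16 CPM, against 2.53 to 2.61 and 1.33 to 1.36.

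Il7r and tcf7 belong to naive and developing T cells. Il7r encodes the receptor chain for the survival cytokine interleukin 7, and it was called in none of the comparisons of genotype or of stage. Its counts were between 4 and 19 over all samples, with 11 and 15 in uninjured mutants, 8 and 11 in uninjured wild types, and 19 and 14 against 9 and 10 at 21 dpci. At these 2 stages the genotypes did not overlap, but the log2 fold changes of 0.64 ± 0.55 and 0.63 ± 0.54 were near their errors (edgeR adjusted p = 0.363 and 0.395). At 7 dpci it had 14 and 14 counts in mutants and 17 and 18 in wild types, the upper end of its range in wild types.

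Tcf7 encodes a transcription factor at the end of the Wnt pathway that directs cells into the T lineage, and is not confined to lymphocytes. It had fewer than 10 counts in 14 of 16 samples and passed the filter through the mutant samples of 7 dpci alone, with 21 and 10 counts. The wild types had 9 and 9 there. The genotype difference was 0.96 ± 0.60 (edgeR adjusted p = 0.247), and the rise from 2 to 7 dpci in mutants was 1.67 ± 0.70 (adjusted p = 0.0343). It was lost when either mutant sample of 2 dpci was left out. Since the filter kept tcf7 only because of that group, the rise is no independent sign, and it was not called without the filter or with a filter at 5 counts. Of 9 tested relatives and Wnt targets, among them lef1 and axin2, 0 were higher in mutants at any of the 4 stages, and 1 was lower, at 2 dpci.

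Cd8a encodes the coreceptor of cytotoxic T cells, which binds MHC class I. It was near 0 throughout, with 63 counts over all 16 samples, but 50 of them were in mutants and 13 in wild types. By stage the mutant samples had 5 and 4, 8 and 6, 10 and 6, and 6 and 5 counts. The wild types had 4 and 2, 0 and 1, 2 and 1, and 1 and 2. In CPM, all 8 mutant samples, at 0.195 to 0.515, were above all 8 wild types, at 0 to 0.165. Of the 27570 genes with a count in any sample, 0.377% had such a separation, and 3.12% had both mutant samples above both wild types at each of the 4 stages. Among the members, cd8a alone had either. The separation was narrow, since mutant sample 2 and wild-type sample 1 of 0 dpci both had 4 counts. They differed in CPM, at 0.195 and 0.165, only through library scaling.

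Scaled for library size, the ratio of the summed cd8a counts was 4.06, with an exact 95% interval of 2.17 to 8.14 that covers counting error only. In order of stage the ratios were 1.72 (interval 0.545 to 5.86), 14.5 (interval 2.2 to 611), 6.17 (interval 1.76 to 33) and 3.28 (interval 0.866 to 18.3). In a fit without the filter on low counts, the difference averaged over the stages was 2.12 (log2, edgeR adjusted p = 0.00202), where 5.61% of genes were called higher. Leaving out any 1 of the 16 samples gave values between 1.91 and 2.71, all of them called. The single stages gave 0.73, 3.59, 2.50 and 1.64 (adjusted p = 0.701, 0.0376, 0.111 and 0.406). The call at 2 dpci was lost whichever sample was left out. In the RefSeq annotation of another assembly, GRCz12tu, the gene gtf3c5 overlaps cd8a. Strand in counting is not given in the sources used here, so reads from the shared stretch may not be told apart. How many of the counts this concerns was not tested. The same holds for lck, foxp3a, il7r, tcf7, cd79b and pax5, which overlap other genes there, and not for zap70, cd4-1 and cd79a.

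Averaged over the 4 stages, 4 of the 9 members tested were higher in mutants (zap70, cd4-1, cd79b and lck) and 0 lower, against 7.69% and 5.82% of all genes. For cd79b the value was 0.99 ± 0.33 (edgeR adjusted p = 0.00704), and for cd79a 0.21 ± 0.27 (adjusted p = 0.548). In both genes the sign differed between 2 and 7 dpci, at -0.68 and 2.25 for cd79b, so an average hides the course over the stages. At 0 dpci no member was called where 11.9% of genes were called higher. There lck, zap70 and cd4-1 had an unadjusted p under 0.05, and DESeq2 called 0. Taking the genotype difference after injury minus that at 0 dpci, no member was called at 2, 7 or 21 dpci, where 34%, 23.6% and 35.7% of genes were. In these 3 comparisons 0, 1 and 0 members had an unadjusted p under 0.05, and DESeq2 called none. The 1 was cd79a at 7 dpci, at 1.62 ± 0.63 with an edgeR adjusted p of 0.05, which was not called.

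Other T-cell genes moved in both directions. Of 19 tested, the mutants had 0, 0, 1 and 7 genes higher by stage and 4, 5, 5 and 2 lower. The most abundant were rorcb, rorca, ccr9a and gata3. Rorcb, a nuclear receptor gene also expressed outside lymphocytes, was lower in mutants by 4.07 at 0 dpci and higher by 0.93 at 21 dpci (log2, edgeR adjusted p = 1.3e-45 and 6.7e-07). The costimulatory receptor genes cd28 and cd28l were picked out after their values had been seen. All 8 mutant samples of cd28l, at 1.33 to 2.86 CPM, were below all 8 wild types, at 7.61 to 14.7 CPM, a separation that 0.453% of genes had in this direction. Its log2 fold changes were -3.03, -1.85, -2.72 and -3.05 by stage, with standard errors of 0.19 to 0.20. Cd28 was lower in mutants by 2.41, 0.76 and 1.63 at 0, 2 and 7 dpci, and gave -0.33 at 21 dpci (adjusted p = 0.442).

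Of 22 tested genes of T-cell receptor signalling, a list that shares lat, itk and txk with the one above and ptprc with the pan-leukocyte genes, 2, 1, 3 and 9 were higher in mutants at 0, 2, 7 and 21 dpci, and 1, 0, 0 and 1 lower. The most abundant were plcg1, ptprc, csk and ptpn6. At 21 dpci ptpn6, a phosphatase that dampens signalling in many leukocytes, was higher in mutants by 0.72 (log2, edgeR adjusted p = 1.78e-08) and ptprc by 0.62 (adjusted p = 2.16e-10), while plcg1 gave -0.33. Of 10 genes of the interleukin 7 receptor pathway, 2, 3, 1 and 5 were higher by stage and 0, 1, 0 and 0 lower. Its most abundant gene, the kinase gene jak1, gave -0.16, 0.50, 0.31 and 0.21. The feedback inhibitor gene cish was higher by 1.38 at 2 dpci (adjusted p = 1.11e-26). Of 9 regulatory T-cell associated genes, 1, 0, 1 and 1 were higher by stage and 0 lower. In this list entpd1, the ectonucleotidase Cd39, was higher by 0.52 at 7 dpci (adjusted p = 4.57e-12) and tgfb1a gave -0.06.

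Natural killer and cytotoxic genes, a list of 16 tested, had 3, 3, 1 and 2 genes higher in mutants by stage and 2, 0, 1 and 0 lower. Its most abundant gene, prf1.5, which encodes a perforin, was lower by 0.55 at 0 dpci and higher by 0.52 at 21 dpci (log2, edgeR adjusted p = 0.00262 and 0.00577). The granzyme gene gzma was picked out after its values had been seen, since it too had all 8 mutant samples above all 8 wild types in CPM. It had 7 to 13 counts in a mutant sample and 0 to 8 in a wild-type one, and both wild types of 21 dpci had 0. No wild-type sample reached 10 counts, so gzma passed the filter only through the mutants, and no test value is given. It is all the same among the genes counted above as higher at 0, 2 and 21 dpci, so those counts are no independent sign. Genes of lymphoid progenitors, 9 tested, had 1, 2, 2 and 1 higher and 1, 0, 1 and 0 lower, and rag1, the recombinase of developing lymphocytes, had at most 7 counts in a sample. Of 9 lymphocyte chemoattractants tested, 3, 3, 3 and 2 were higher and 1, 1, 1 and 2 lower. The most abundant, cxcl12b, was higher by 0.53 at 2 dpci and lower by 0.80 at 21 dpci (adjusted p = 4.92e-16 and 5.16e-25), and gave 0.42 and 0.14 at 0 and 7 dpci. The cytokine gene il15, which supports natural killer cells and memory T cells, was lower by 1.23, 1.00 and 1.05 at the first 3 stages and gave -0.11 at 21 dpci (adjusted p = 0.666).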

How the data were processed

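The authors checked raw reads with FastQC, aligned them with STAR and counted reads per gene with featureCounts. They deposited raw counts by gene symbol for 16 samples, with no normalization. The submitters' processing notes name GRCz11 (danRer11). Annotation, strand and the handling of reads with several alignments are not given in the sources used here. No coordinates or sequences are printed.

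The analysis used edgeR 4.0.16 with limma 3.58.1 under R 4.3.3. Genes reaching 10 counts in 2 or more samples were kept, 18949 out of 31351. Libraries were scaled by TMM, all 16 samples entered 1 glmQLFit model with a coefficient for every condition (prior degrees of freedom 62.2), and contrasts were tested with glmQLFTest and adjusted by Benjamini-Hochberg over all genes tested. A call needs an adjusted p under 0.05 and, except in interactions, an absolute log2 fold change over 0.5, the study's thresholds. Standard errors of log2 fold changes were derived from the test, as the absolute log2 fold change divided by the square root of the quasi-likelihood F statistic. CPM are counts per 1e6 counts of TMM-scaled library. Counting intervals are exact at 95%. Replicate samples differed by more than counting noise (chi-square per degree of freedom 1.61 to 2.58). DESeq2 1.42.0 and other settings were alternatives. The fit was tested on simulated data first.

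All 10 members are named. From each other list the 4 genes with the highest mean CPM were eligible by name, and exceptions are stated. Likeness used log2 CPM with a prior count of 2. The members and lists were chosen with earlier results of these data known. The study's methods mention batch effects, but no batch is named, and none was used.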

Additional observations from a re-analysis of the deposited data

Results flagged for a closer look

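The genotype difference of both B-cell receptor chains at 7 dpci stood apart from that at 2 dpci, by a test of the difference itself. For cd79a the log2 fold change of mutants against wild types was 2.50 higher at 7 than at 2 dpci (edgeR quasi-likelihood test, adjusted p = 0.000822). For cd79b it was 2.93 higher (adjusted p = 0.00325). Both values had the same direction and passed the test in each of 8 fits with 1 sample left out, between 2.23 and 2.90 and between 2.77 and 3.09. The comparison of 7 with 2 dpci was chosen after the stage values had been seen. By the same test, the genotype difference at 7 dpci minus that at 0 dpci was called for neither chain.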

How the results depend on the processing

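Each count is the number of members called, of 9 tested, or of 10 with no filter or the filter at 5 counts, where cd8a enters. Alternatives changed no called direction. Comparing mutants with wild types, DESeq2 called 0, 2 and 1 at 2, 7 and 21 dpci in place of 1, 4 and 2. A test against a fold change threshold (glmTreat) called 0, 2 and 0, and 0 averaged over the stages in place of 4. Scaling to pan-leukocyte counts, chosen after seeing the data, gave 0, 2, 0 and 2. A fit of only the groups compared gave 1 at 0 dpci in place of 0, and 0 at 2 dpci. Library size alone gave 1 at 0 dpci, and with no filter, or with a filter at 5 counts chosen after seeing the data, 2 were called at 2 dpci, zap70 and cd8a. In wild types, 21 against 7 dpci gave 3 in place of 5 with DESeq2 and with glmTreat, 21 against 0 dpci gave 0 in place of 1 with glmTreat, and 2 against 0 dpci gave 2 in place of 1 with library size alone. In mutants, 7 against 2 dpci gave 4 in place of 7 with glmTreat, and 2 against 0 dpci gave 2 in place of 1 with upper quartile scaling and with only the groups compared. For mutants at 21 against 0 dpci, 1 was called in place of 2 with RLE factors, no filter, the filter at 5 counts, DESeq2, glmTreat and only the groups compared. The genotype difference at 7 minus that at 0 dpci gave 1 in place of 0 with RLE, upper quartile, library size alone, no filter and the filter at 5 counts. With the replicate number as a block, mutants at 21 against 0 dpci gave 1 in place of 2, and no other count moved by over 1.5 times. Same-numbered samples did not deviate together (28 pairs, correlations between -0.0307 and 0.0321), so no pairing by number was seen. These correlations cannot tell whether samples shared a batch. With 1 sample left out, the lone sample being assumed to vary like the other groups, the counts ran from 0 to 1, 0 to 1, 2 to 3 and 0 to 2 at 0, 2, 7 and 21 dpci, and from 3 to 4 averaged. In wild types they ran from 1 to 3 (2 against 0), 3 to 5 (21 against 7) and 0 to 1 (21 against 0), and stayed at 3 (7 against 2). In mutants they were 1, 5 to 6, 4 and 1 in the same order of 2 against 0, 7 against 2, 21 against 7 and 21 against 0 dpci. The genotype difference gave 0 to 1 at 2 minus 0 and at 7 minus 0 dpci, 2 to 3 at 7 minus 2, and 0 at 21 minus 0 and at 21 minus 7. The causes were not tested. Library size alone moved the median of all genes at 21 dpci to 0.183, and changes are to be read relative to it. Counts of a few reads limit the foxp3a, tcf7 and cd8a values.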

Other observations

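Over the 16 samples, the log2 levels of the 3 B-cell genes went together, with Pearson's r of 0.85 between cd79a and pax5, 0.82 between cd79a and cd79b and 0.82 between cd79b and pax5. Among T-cell genes, r was 0.72 between zap70 and foxp3a, 0.72 between zap70 and il7r and 0.69 between lck and il7r. Other T-cell pairs were lower, down to 0.21 between cd4-1 and il7r and 0.047 between lck and cd4-1. Pairs of a T-cell gene with a B-cell gene ran from 0.16, for lck and pax5, to 0.75, for tcf7 and cd79b. Cd4-1 had 0.74 with pax5 and 0.72 with cd79a. The T-cell genes were thus not set apart from the B-cell genes by these values. The gene ighd was the third most alike to cd79a among 15714 genes, at 0.897. These samples share stages and genotypes, so the values are descriptions only.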
